A study of Homo sapiens with 19 samples.

Results

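Alternative first exons that share one acceptor are the start exons of a gene that are spliced to the same downstream exon. They were taken as the first introns of GENCODE 29 transcripts that end at an acceptor used by at least 2 different first introns of the same gene. The acceptor group also needed at least 100 reads summed over the 19 libraries, and RBFOX2, the gene targeted by the knockdowns, was left out. This gave 8375 acceptor groups with 22797 first introns in 6543 genes, among 361515 annotated introns. The share of a first exon is the number of reads on its intron as a percentage of the reads on all first introns of its acceptor group. The members were chosen by their summed reads, and their shares were not used.

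Ribosomal-RNA-depleted RNA of 3 human cell lines was sequenced, and reads that cross a splice junction were counted. A375, a melanoma line, gave 1 library each of total, nuclear and cytoplasmic RNA, and HEK293, an embryonic kidney line, gave 1 library of untreated wild-type cells. HUES66, an embryonic stem cell line, gave 1 untreated wild-type library and 14 libraries of cells under 1 µg/ml doxycycline. These 14 were controls, labelled WT, at 24 hr (replicate 2), 48 hr and 96 hr, a total RBFOX2 knockdown at 24 hr (replicate 1), 48 hr and 96 hr, and knockdowns of the N-short and N-long RBFOX2 forms at 24 hr (replicates 1 and 2), 48 hr and 96 hr. Each group at 48 hr and 96 hr is 1 library. The labels do not say that libraries came from separate cultures, so the p-values measure the spread between these libraries, which may be technical. The labels give no promoter or clone for the doxycycline-treated cells.

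A gene with several promoters can make transcripts that differ in the 5′ untranslated region alone, or that begin with different coding sequence and so encode proteins with different N termini. The promoters can respond to different regulators, and the different 5′ ends can be translated or exported differently. A first exon can also end at more than 1 donor, and an exon that starts one transcript can be an internal exon of another. Junction reads do not tell a start at an exon from splicing into it from upstream.

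The following junctions show what is counted for the genes the results turn on. Each line gives the last 20 bases of a first exon in lower case and the first 10 bases of the shared exon in capitals, in transcript direction, from GENCODE 29 transcripts (hg38).
MAT2B farther first exon, intron chr5:163503425-163512001, plus strand: tgccagaggacatggagcagGAGGAAGTTA
MAT2B nearer first exon, intron chr5:163505750-163512001, plus strand: ggagctgtcggctggtggagGAGGAAGTTA
SET farther first exon, intron chr9:128684008-128691169, plus strand: aggcttgccgaagaagggagAAAAAGAACA
SET nearer first exon, intron chr9:128689656-128691169, plus strand: cggggccgacgagacctcagAAAAAGAACA
MDM2 farther first exon, intron chr12:68808492-68809207, plus strand: ccccggatggtgaggagcagGCAAATGTGC
MDM2 nearer first exon, intron chr12:68809087-68809207, plus strand: ctttttctctgctgatccagGCAAATGTGC
SDF2 farther donor, intron chr17:28655484-28662045, minus strand: tggaacagagcgagagtatcGTAGTGGGCA
SDF2 nearer donor, intron chr17:28655484-28661725, minus strand: cgacgtgcgctatgggtcagGTAGTGGGCA
PHF3 farther first exon, intron chr6:63636151-63679999, plus strand: cgctcgtctggcggagctggTTGTTGGTCT
PHF3 nearer first exon, intron chr6:63646796-63679999, plus strand: ccagatgccttgttcaacagTTGTTGGTCT
PQBP1 farthest donor, intron chrX:48898015-48898491, plus strand: agagagtcgtgtgggcccagGTCTGTCTGC
PQBP1 next donor, intron chrX:48898083-48898491, plus strand: ctacctgcacgagtgtattgGTCTGTCTGC
PQBP1 nearest donor of these, intron chrX:48898094-48898491, plus strand: agtgtattggtaacgttgggGTCTGTCTGC
FOXP1 farther first exon, intron chr3:71299881-71359149, minus strand: agacacgttaaaatttcaggGGTAAGACGT
FOXP1 nearer first exon, intron chr3:71299881-71305877, minus strand: tgcctcctcaccatgaacggGGTAAGACGT
Within a gene the capitals are the same, since the acceptor is shared, and the lower-case ends differ.

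Most shared acceptors were served by 1 dominant first exon. Over the pooled libraries the leading first exon took a median share of 98.4%, and it took at least 90% in 6177 of the 8375 groups (73.8%). In 498 groups (5.95%) the leader stayed under 60%. Among the 4804 groups whose introns are first in every transcript that holds them, the median leading share was 97.9%. Of the groups, 5138 held 2 first introns, 1813 held 3, 787 held 4 and 637 held 5 or more, up to 16 in GNAS, the stimulatory G protein locus known for its stacked promoters. In 6781 groups (81.0%) at least 2 first exons did not overlap, and in 1594 groups all first exons overlapped, so the introns there are alternative donors of one start exon. The farthest donor led in 3948 groups (47.1%).

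**Figure D1:**
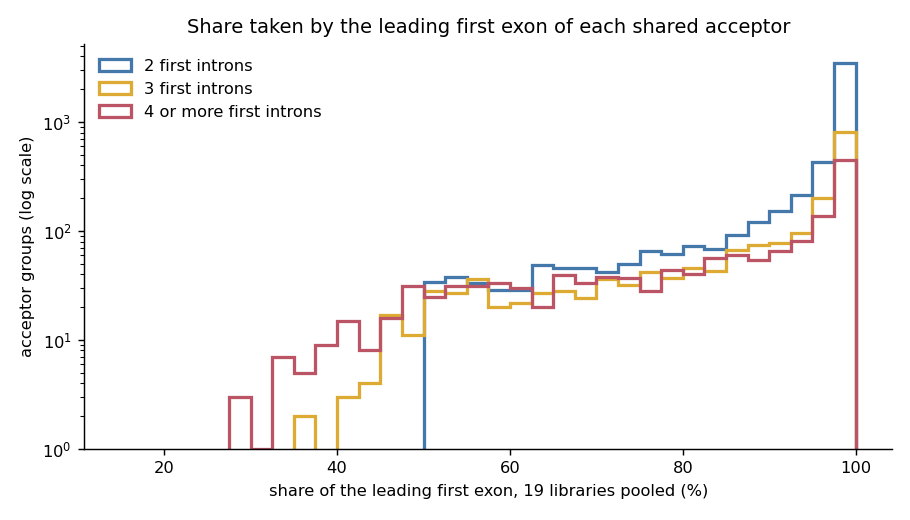
Number of acceptor groups (log scale) by the pooled share of the leading first exon, in outlines for groups of 2, 3, and 4 or more first introns. The groups pile up near 100%, with a median of 98.4%.

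Leading and other first exons differed in several annotated properties, given as descriptions. The first exon held coding sequence for 48.7% of the 8375 leading introns and 19.7% of the 14422 others. The leading intron was an internal intron of another transcript in 36.4% of cases, against 6.73% of the others. In the first 100 bases of the transcript, leading first exons had a median GC content of 65.0% and a median observed over expected CpG ratio of 0.806. For the others these medians were 60.2% and 0.653. Of all first introns, 4496 (19.7%) had 0 reads in the 19 libraries.

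The groups with most reads belonged to abundant housekeeping genes. Their leading introns are each internal in another transcript, so the reads there include, and cannot be told apart from, splicing between internal exons. NPM1, the nucleolar protein nucleophosmin, had 127970 reads and a leading share of 99.9%. The ribosomal protein genes RPL13, RPS3 and RPS2 had 106066, 105830 and 99425 reads and leading shares of 99.7% to 100.0%. At the other end, the groups at HIVEP2, RALGDS and ZNF182 had 99 reads and fell outside the limit, while those at TMEM80, GAB2 and MEIS2 had 100 and fell inside it.

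The libraries held 6499183 to 27937149 junction reads, and 96.7% to 98.3% of these were on annotated introns. Members took 6.22% of all junction reads. Level here is reads on a gene's annotated junctions as counts per 1e6 junction reads (CPM). RBFOX2 was at 119 to 126 CPM in the 3 controls, at 48.2 to 78.7 in the 3 total knockdown libraries, at 107 to 120 in the 4 N-short libraries and at 72.7 to 87.6 in the 4 N-long libraries. Markers of pluripotent cells summed to 3130 CPM in wild-type HUES66, 47.5 in HEK293 and 9.15 in A375. Of 6 melanocyte markers, SOX10 and MITF were at 100.0 and 39.0 CPM in A375, at 0.0 and 8.22 in HEK293 and at 1.32 and 0.823 in HUES66. PMEL went the other way, with 0.476 CPM in A375 and 47.9 in HUES66, and the defining markers TYR and MLANA were at 0 in each library. A list of nuclear RNAs summed to 56.2 CPM in the nuclear and 15.8 in the cytoplasmic library of A375.

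Between the cell lines, the start exon was mostly the same. In the 1649 groups with at least 50 reads in each of the 3 line libraries, the largest difference of a share between lines had a median of 1.10 percentage points, and the leading first exon differed between lines in 37 groups (2.24%). A difference of at least 20 points was found in 61 groups (3.70%). Over all annotated acceptors with alternative introns, first or internal, the share was 2.94%. Of the 61 groups, 49 held separate first exons, as did 1329 of the 1649 compared, and in 12 all first exons overlapped. Each line is 1 library, so no test was possible. The intervals given are 95% Wilson intervals of counting error alone, and reads without molecular identifiers are not independent molecules. Genes named for a line were chosen by their gaps in these same libraries, so intervals that do not meet are no separate support.

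The widest gap of one line over both others was in HUES66, at MAT2B, the regulatory subunit of methionine adenosyltransferase. Its farther first exon took 74.5% of reads in wild-type HUES66 (68.8% to 79.5%), 24.4% in A375 (16.2% to 34.9%) and 23.8% in HEK293 (15% to 35.6%). The 14 doxycycline-treated HUES66 libraries ranged from 64.3% to 84.4%, with a median of 79.0%, so the HUES66 libraries did not overlap the other lines. Both MAT2B first exons hold coding sequence, and the shared exon begins with the capitals printed above.

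SET, a chaperone of histones and inhibitor of protein phosphatase 2A, was the best covered of these genes. Its farther first exon took 62.9% of 8806 reads in wild-type HUES66, 24.2% of 648 reads in A375 and 21.2% of 1155 reads in HEK293. The treated HUES66 libraries lay between 56.3% and 69.6%, above both other lines. Both SET first exons printed above hold coding sequence.

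Other introns were also highest in HUES66. NDUFS5, a subunit of respiratory complex I, used the farther of 2 donors of a single start exon for 78.4%, against 49.7% in A375 and 45.8% in HEK293. The donor of USP33, a deubiquitinase, stood at 65.9% against 40.4% and 32.5%. APEX1, the abasic-site endonuclease, used one of the 7 donors of a single start exon for 35.4% of reads in HUES66, 10.9% in A375 and 1.95% in HEK293. FAT1, an atypical cadherin, used its nearer first exon for 67.6%, against 44.9% and 10.9%. For these 4 genes, MAT2B and SET, all 15 HUES66 libraries lay above every A375 and HEK293 library. CAST, the calpain inhibitor, and CTSL, a lysosomal protease whose donors belong to a single start exon, were at 52.3% and 55.7% in wild-type HUES66. The treated libraries reached down to 24.6% and 22.2% there, into the range of the other lines. With the 3 doxycycline-treated controls summed in place of wild-type HUES66, the gap of CTSL turned from 22.8 to -0.714 points and that of CAST fell from 25.1 to 2.09 points.

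A375 stood apart at NNT, NME2 and TSC22D1. The nearest first exon of NNT, the mitochondrial transhydrogenase, took 69.6% of 56 reads in A375 (56.7% to 80.1%), 27.1% in HEK293 and 26.8% in HUES66. For NME2, a nucleoside diphosphate kinase, the nearest donor took 46.1% of 193 reads in A375 (39.2% to 53.2%) against 1.89% in HEK293 and 4.22% in HUES66. The nearest first exon of TSC22D1, a leucine zipper gene with long and short forms, took 91.4% in A375 against 55.0% and 52.1%. These are the groups with the widest gaps in A375, and their intervals did not meet those of the other lines.

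TPM1, the tropomyosin gene known for alternative promoters that make long and short actin-binding isoforms, used the third of 5 first exons for 35.5% of 76 reads in A375 (25.7% to 46.7%). The same exon took 2.90% in HEK293 and 5.73% in HUES66, where the 14 treated libraries ranged from 1.38% to 7.86%. When introns that are also internal elsewhere were left out, the TPM1 gap was 0.0 points. Such a value also arises where the competing introns are the ones left out, so it does not show whether the difference holds. The farthest donor of ALDOA, a glycolytic aldolase, took 59.4% in A375, 20.6% in HEK293 and 25.3% in HUES66. Ribosomal protein genes RPL34 and RPL35A used their farthest donors for 75.3% and 65.9% in A375, against 44.4% and 41.4% in HEK293 and 39.3% and 38.0% in HUES66.

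MDM2 encodes the ubiquitin ligase of p53, and its inner promoter is known to respond to p53. The nearer first exon, which lies inside the first intron of the farther one, took 55.0% of 151 reads in A375 (47.0% to 62.7%). It took 31.9% in HEK293 (22.3% to 43.4%) and 22.3% in HUES66 (16.8% to 29%), and the treated HUES66 libraries ranged from 18.9% to 34.3%. For all 8 genes named for A375, the total, nuclear and cytoplasmic A375 libraries each lay above HEK293 and above the 15 HUES66 libraries.

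HEK293 had its widest gaps at SNHG8, TNPO2 and FAT1. SNHG8, a host gene of small nucleolar RNA, spliced from the farther of 2 donors in 81.5% of 178 reads in HEK293 (75.1% to 86.5%), 44.4% in A375 and 27.0% in HUES66. The middle first exon of TNPO2, a nuclear import receptor, took 63.1% of 65 reads in HEK293 against 26.7% and 17.9%. Its gap was 0.0 points among introns that are first in every transcript, with the same limit as at TPM1. The farther first exon of FAT1 took 89.1% of 55 reads in HEK293, 55.1% in A375 and 32.4% in HUES66, so the 3 lines followed one another without overlap of their intervals.

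The other first exons highest in HEK293 were those of SEPT2, a septin (58.7% against 28.1% in A375 and 27.0% in HUES66), and SETD5, a chromatin regulator (43.5% against 10.8% and 13.4%). NPC1, the lysosomal cholesterol exporter, used its nearer first exon for 36.6% in HEK293, 7.02% in A375 and 1.94% in HUES66. DPYSL2, a microtubule-binding protein of growing axons, used its farthest first exon for 36.1% in HEK293, 8.03% in A375 and 0.453% in HUES66. DYNC1I2, an intermediate chain of dynein, was at 73.5% against 48.2% and 41.6%. Each of the 8 HEK293 values lay above all 15 HUES66 and all 3 A375 libraries.

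**Figure D2:**
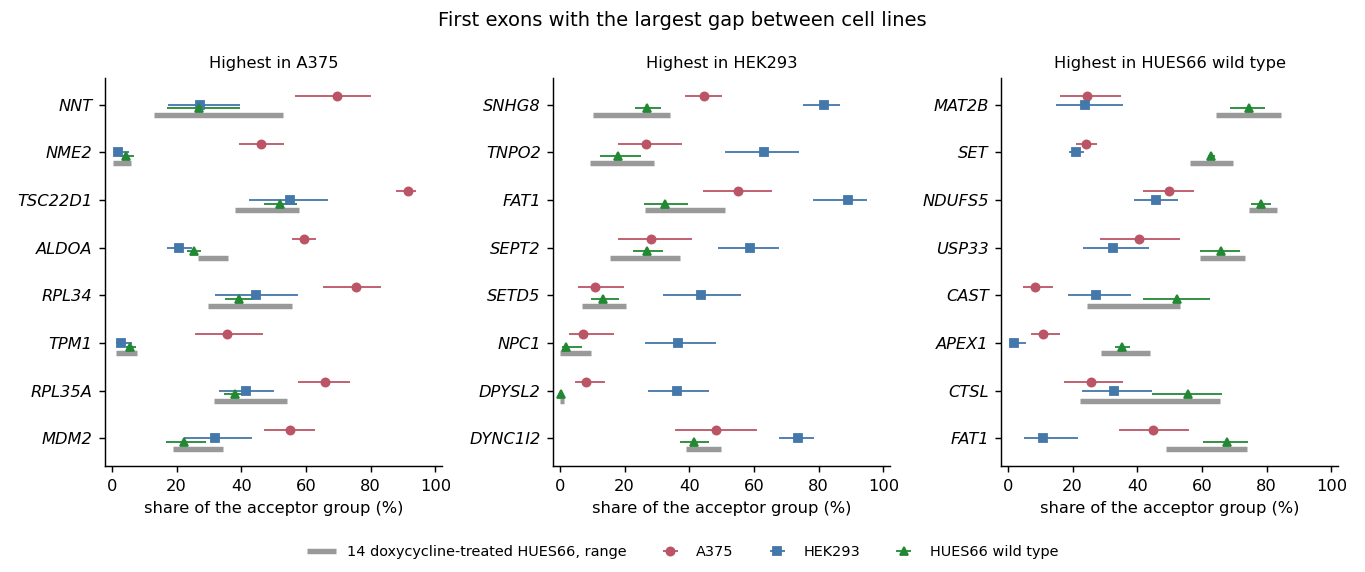
Share of the acceptor group (%) for the 8 first exons with the widest gap in favour of each line; points are single libraries with 95% Wilson intervals and grey bars the range of 14 doxycycline-treated HUES66 libraries. The grey bars of CAST and CTSL reach the other lines, and those of MAT2B (64.3% to 84.4%) do not.

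Within A375, nuclear and cytoplasmic RNA carried nearly the same mix of first exons. The largest difference in a group had a median of 0.520 points over the 1414 groups with at least 50 reads in both fractions. A difference of at least 20 points was found in 23 groups (1.63%), against 1% over all acceptors with alternative introns. In the 897 groups with 2 first introns, the share of the farther donor in the nucleus minus that in the cytoplasm had a median of 0.0 points, with quartiles of -0.256 and 0.185.

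The widest fraction differences were between 53.4 and 59.5 points. The farther start of FKBP9, a prolyl isomerase of the endoplasmic reticulum, took 91.7% of 72 nuclear reads (83.0% to 96.1%) and 32.1% of 56 cytoplasmic reads (21.4% to 45.2%). That intron is also internal in another FKBP9 transcript. SDF2, which acts in protein folding in the endoplasmic reticulum, used the nearer of the donors printed above for 96.8% of nuclear reads and 41.4% of cytoplasmic reads. PCDHGC3, a gamma protocadherin, was at 94.5% and 40.6%, and ATRAID, a membrane protein of retinoic acid signalling, at 86.9% and 33.5%. That PCDHGC3 intron is also internal in another transcript. In PCDHGC3 and ATRAID the first exons overlap, so these are alternative donors of one start exon. The intervals of the fractions did not meet in any of these 4 genes, which were chosen by their difference in these same libraries.

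Next came HLA-DPB1, an MHC class II chain, with 84.0% nuclear and 44.4% cytoplasmic, and BCAP31, a sorting protein of the endoplasmic reticulum, with 85.8% and 47.4%. Among introns that are first in every transcript, the BCAP31 difference was 17.6 points instead of 38.4. PLPP2, a lipid phosphatase, stood at 88% and 57.8%, and POM121, a pore membrane protein of the nuclear envelope, at 38.9% and 10.2%. G6PC3, a glucose-6-phosphatase, was at 100.0% of 104 nuclear reads (96.4% to 100.0%) and 72.7% of cytoplasmic reads. The nearer MDM2 first exon was at 62.9% in the nucleus and 35% in the cytoplasm.

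The remaining named genes differed by 22.1 to 26.7 points: RNASEK, CYP51A1, TMEM230, RNASEK-C17orf49, BUD31 and MGST1. RNASEK-C17orf49 is a readthrough gene whose intron is the RNASEK intron, so their reads are the same. In 15 of the 16 named genes the total RNA share lay between the fractions, and PLPP2 at 91.3% was the exception. In 7 of the 16 the nucleus-higher first exon held coding sequence and the cytoplasm-higher one did not, and in 3 it was the reverse. Over the compared groups in which 1 of the extreme first exons codes, the nucleus-higher one did so in 263 of 429 (61.3%), whatever the size of the difference. With overlapping first exons summed, 12 groups passed 20 points instead of 23.

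**Figure D3:**
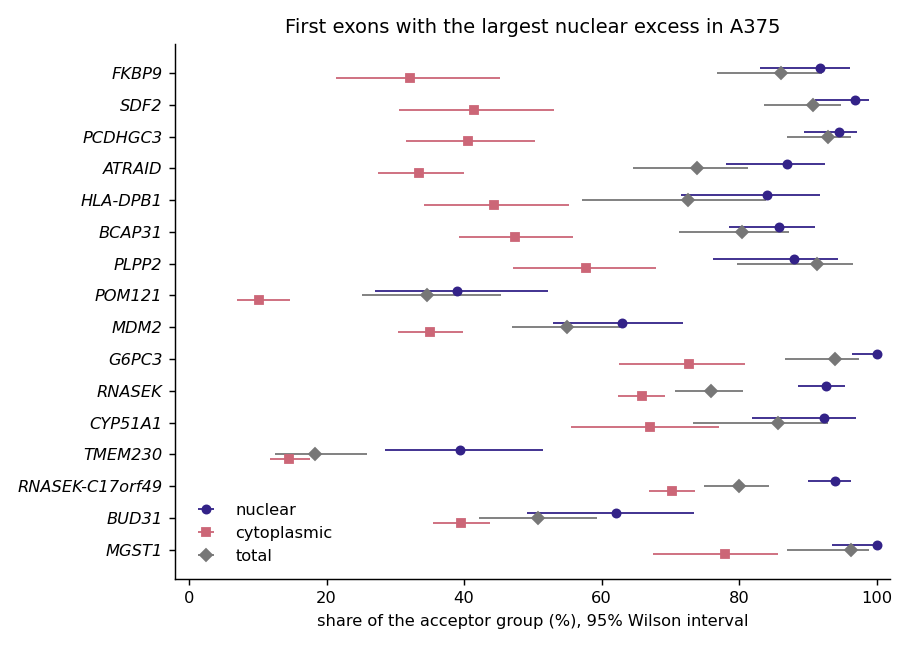
Share of the acceptor group (%) in A375 nuclear, cytoplasmic and total RNA, 1 library each with 95% Wilson intervals, for the 16 genes with the largest nuclear excess. FKBP9 is at the top with 91.7% and 32.1%, and total RNA lies between the fractions except in PLPP2.

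RBFOX2 is a splicing factor that binds introns near alternative exons, and the knockdowns ask whether first exon shares move when it or one of its N-terminal forms is lowered. Few did. Shares were tested in the 14 treated libraries with edgeR's quasi-likelihood F-test and Benjamini-Hochberg adjustment over 11734 introns at shared acceptors, of which 3725 are members in 2059 groups. The contrasts against control use the same 3 control libraries. In simulated data the total knockdown test recovered 7% of introns whose log2 odds were changed by 1, and 35% of those changed by 2. A share that did not pass may therefore still have moved.

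With the total knockdown, 11 of 3725 first introns in 9 genes passed an adjusted p of 0.05 (0.295%), while 0.801% of all tested introns at shared acceptors did. Share rose for 9 and fell for 2. All 11 lie in acceptor groups that hold an intron which is internal in another transcript, as do 37.7% of the tested members. Of the 11 introns, 5 had at most 13 reads in each of the 14 libraries. DESeq2 called 0 of them and limma 1. Without the 96 hr control 1 intron passed, and without the total knockdown at 48 hr or at 96 hr 3 passed, each among the 11. Without the 48 hr control 6 passed, of which 4 were among the 11.

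PHF3, a regulator of RNA polymerase II, showed the widest separation. The nearer start, which is also an internal exon of longer transcripts, took 57.6%, 56.9% and 54.0% in the controls at 24, 48 and 96 hr. In the total knockdown it took 34.6%, 32.8% and 30.4% at the same times. The N-short libraries were at 52.3% and 62.5% (24 hr), 59.7% and 48.5%, the N-long libraries at 47.1% and 64.5% (24 hr), 54.7% and 49.5%, and wild type at 52.8%. The 3 total knockdown libraries thus lay below the other 11, whose lowest value was 47.1%. Its log2 odds fell by 1.20 (SE 0.296, adjusted p = 0.0082 by edgeR), a mean difference of -23.9 ± 0.356 points (SD, n = 2 times with both libraries). The farther PHF3 first exon rose by the same amount, since it is nearly the complement. The call was lost with DESeq2, with limma, and without either control or either total knockdown library of 48 or 96 hr.

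ZRANB2, a zinc finger splicing factor, used its farther donor for 29.8%, 27.7% and 38.3% in the controls and 44.1%, 42.9% and 45.3% in the total knockdown. The groups did not overlap, and the log2 odds rose by 0.76 (SE 0.168, adjusted p = 0.0017 by edgeR). The mean difference was 11.1 ± 5.86 points (SD, n = 2). The N-short and N-long libraries ranged from 26.8% to 43.1%, and ZRANB2 also passed the test of 96 hr against 48 hr. Its call was lost with DESeq2, with limma and without the total knockdown library of 48 hr.

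PTBP1, the polypyrimidine tract-binding splicing repressor, used its farther donor for 23.2%, 22.8% and 16.2% in the controls. In the total knockdown this donor took 26.6%, 31.3% and 25.6% (log2 odds change 0.64, SE 0.157, adjusted p = 0.0081 by edgeR). The nearer intron, which held most reads of the group, is also internal in another transcript. A change of start therefore cannot be told from a change of internal splicing there. The isoform knockdowns at PTBP1 lay between 23.3% and 28.3%, and the 96 hr control at 16.2% was below every other treated library. Its call was lost with DESeq2, with limma, and without the 48 hr control, the 96 hr control or the total knockdown library of 48 hr.

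Other calls of the total knockdown rested on few reads. SLC35B1, a nucleotide sugar transporter gene, had 1 read of its farther first exon in the controls at 48 and 96 hr and 13 and 6 in the total knockdown. At 96 hr its nearer first exon stood at 91.5% in the total knockdown and at 92.9% in the N-short library. THOC2, a subunit of the mRNA export complex TREX, had 87.1% and 92.0% in these controls and 100.0% in both knockdown libraries. For ZNF532, a zinc finger gene, a nearer first exon had 0 reads in the 3 controls and 3 to 9 reads in the total knockdown. PXN, the focal adhesion protein paxillin, had 0 reads in the 3 controls and 2 to 6 in the total knockdown, and RNASEH2B, a ribonuclease H2 subunit, had 3 to 5 in the controls and at most 1 in the knockdown.

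With the N-short knockdown, 0 of 3725 first introns passed by edgeR (0% of all tested introns did), with 161 at an unadjusted p under 0.05. DESeq2 called 0 and limma 1. With the N-long knockdown, 5 first introns in 4 genes passed (0.134%, against 0.273% of all tested introns), while 2 passed without the 48 hr control or without the 96 hr control, and 3 without the N-long library of 96 hr. N-long against N-short gave 2 calls (0.0537%, against 0.222%), RPL17 and RPL37, and it gave 1 without the N-long library of 48 hr or of 96 hr or without either N-short library of 24 hr, and 3 without the N-long library of 24 hr replicate 2 or the N-short library of 48 hr.

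RPL17, a large-subunit ribosomal protein, carried the widest change under N-long knockdown. Its farthest first exon, with the intron at chr18:49491834-49492457, took 46.3%, 62.1% and 57.1% in the controls at 24, 48 and 96 hr. In the N-long libraries it took 56.1% and 56.2% (24 hr), 96.5% and 90.7%, for a mean difference of 26.0 ± 13.9 points (SD, n = 3) and an adjusted p of 0.011 by edgeR. The nearest intron of this group was listed at 0 of 86 and 0 of 54 reads in the N-long libraries of 48 and 96 hr and at 20.5% to 43.2% in the other treated libraries of those times. The same intron was also listed at 0 in nuclear A375 RNA. RPL37, another large-subunit gene, had an intron listed at 0 in 10 of the 19 libraries and at 60 to 551 reads in the other 9, across groups. Its calls with N-long moved in different directions between library sets. The RPL17 call was lost with DESeq2, with limma, and without the control or the N-long library of 48 or 96 hr. With introns listed in this way left out, N-long against N-short gave 0 calls and N-long against control 3. Only the listed introns were left out, and the other introns of their groups kept the same shares. The call of the farthest RPL17 first exon therefore stayed, and these 3 calls are not free of such zeros.

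The other N-long calls were ZNF532, with 0 reads in the 3 controls and 3 to 6 in the N-long libraries, and PCBP1-AS1, an antisense transcript of an RNA-binding protein gene, with 0 reads in the controls and 2 to 9 in the N-long libraries. Untreated wild-type HUES66 had 11 and 8 reads of these introns. With that library added as the control of 24 hr replicate 1, neither passed.

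**Figure D4:**
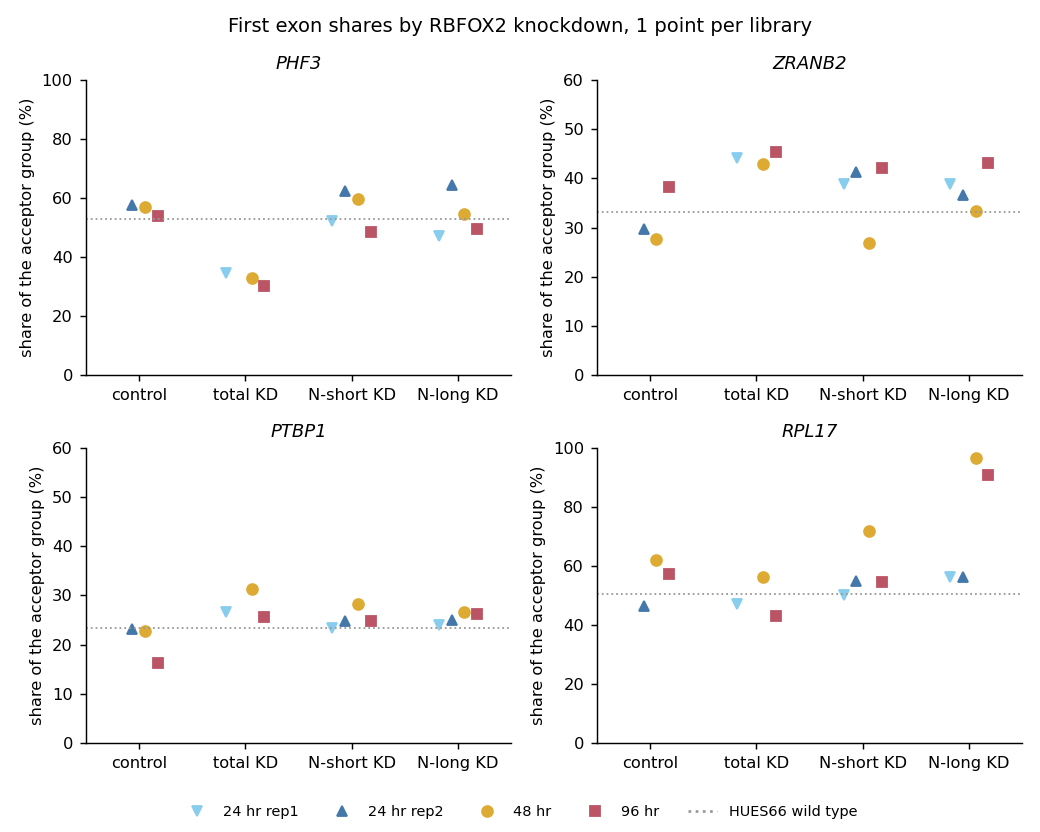
Share of the acceptor group (%) of 1 intron each of PHF3 (nearer start), ZRANB2, PTBP1 and RPL17 (farthest first exon) in the 14 treated HUES66 libraries, 1 point per library by knockdown and time; the dotted line is untreated wild type. The 3 total knockdown points of PHF3 (30.4% to 34.6%) lie below the other 11, and RPL17 is high in the N-long libraries of 48 and 96 hr.

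Between the 48 hr and 96 hr libraries, many more first exon shares differed. The 48 hr libraries form one library set and the 96 hr libraries another, so time and library set cannot be told apart in the comparison of 96 hr with 48 hr. In the 8 libraries of these times, 379 of 3794 first introns passed by edgeR, in 258 groups and 257 genes (9.99%), while 12.2% of all tested introns at shared acceptors did. Shares were higher at 96 hr for 195 and lower for 184, and 350 moved the same way in all 4 treatments. The 4 libraries of each time did not overlap in 511 of 3794 members (13.5%), against 15.6% of all tested introns. DESeq2 called 62, all among the 379, and limma called 0 with 689 at an unadjusted p under 0.05. Without any 1 of the 8 libraries, 207 to 248 passed. Markers of pluripotent cells summed to 2890 to 3010 CPM at 48 hr and 3420 to 4150 at 96 hr, and a list of 8 markers of differentiated derivatives to 201 to 232 and 164 to 222. Nearly all of the second sum is COL1A1, at 141 to 231 CPM in the 14 treated libraries, where each of the other 7 was at most 1.36. Their part in the shares was not tested.

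The called introns with the largest differences are named first. ABR, a regulator of small GTPases, used its farthest first exon for 80.6%, 77.4%, 84.1% and 82.9% at 48 hr (control, total, N-short, N-long). At 96 hr the values were 45.8%, 45.5%, 36.0% and 36.0%, a mean difference of -40.4 ± 8.23 points (SD, n = 4, adjusted p = 5.3e-05 by edgeR). PQBP1, a polyglutamine-binding protein of the spliceosome, used the farthest of the donors printed above for 74.3%, 64.0%, 74.4% and 77.8% at 48 hr and 41.7%, 47.0%, 44.1% and 40.3% at 96 hr (adjusted p = 4.1e-11 by edgeR). The times did not overlap in either gene. The 6 PQBP1 libraries of 24 hr, at 40.1% to 50.7%, and wild type at 49.2% lay with the 96 hr values.

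CHEK1, the DNA damage checkpoint kinase, fell from 71.1% to 80.0% at 48 hr to 43.0% to 56.1% at 96 hr at its farthest first exon, and ZMYM1, a zinc finger gene, from 61.8% to 72.5% to 26.5% to 39.5%. MRPL55, a mitochondrial ribosomal protein whose donors belong to a single start exon, fell from 35.3% to 52.4% to 8.70% to 25%. DNMT3A, a de novo DNA methyltransferase, rose at its nearest first exon from 6.06% to 28.6% to 41.9% to 53.5%. In all 4 genes each treatment moved the same way without overlap, and adjusted p was at most 0.00099 by edgeR. The farthest DNMT3A first exon fell, from 61.8% to 81.8% at 48 hr to 37.0% to 51.6% at 96 hr.

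BX284668.5, a gene with no assigned function here, S100A16, a calcium-binding protein, RABGAP1L, a GTPase-activating protein, and TMEM164, a membrane protein, changed by 27.6 to 30.9 points in absolute size. BX284668.5, RABGAP1L, S100A16 and TMEM164 had between 13 and 56 reads per library. The call of each was lost with limma and without at least 4 of the 8 libraries, one at a time. The calls of ABR, PQBP1, CHEK1, ZMYM1, MRPL55 and DNMT3A were also lost with limma. Groups of ABR, DNMT3A and MRPL55 had similarly few reads, at 22 to 44, 27 to 43 and 23 to 48 per library. At RABGAP1L the 96 hr values spread from 20.0% to 63.6%, and the control at 96 hr met the 48 hr range of 61.5% to 73.7%.

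Leaving aside RPL37, whose listed zeros are described above and whose p was smaller, the smallest p-values came from deeply covered genes, named here after their values were seen. RPS14, a small-subunit ribosomal protein, used its farthest first exon for 65.5% to 71.7% at 48 hr and 45.2% to 50.4% at 96 hr (log2 odds change -1.30, SE 0.0845, adjusted p = 9.6e-50 by edgeR). At 24 hr it stood at 44.5% to 48.1%, and in wild type at 49.5%. RPL26, whose donors belong to a single start exon, fell from 90.9% to 91.6% to 82.2% to 84.4%, and RPS10 rose from 5.32% to 5.96% to 12.2% to 13.7%. RPS10 shares these introns with the readthrough gene RPS10-NUDT3, so their reads are the same. An RPL17 group with its acceptor at a different site rose from 13.2% to 15.1% to 21.2% to 25.8%.

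HMGB2, a chromatin protein of dividing cells whose donors belong to a single start exon, fell from 95.4% to 96.4% to 86.6% to 90.2%. CBX5, heterochromatin protein HP1 alpha, fell from 85.9% to 90.4% to 72.6% to 74.5%. SALL2, a zinc finger factor, rose from 33.6% to 45.0% to 53.0% to 63.7%. These ranges of 4 libraries each did not overlap. Among ribosomal protein genes as a group, picked after these values were seen, 33 of 51 tested introns passed, in 18 of 24 genes, against 9.99% of all tested members. Of these 33, 19 lie in groups whose first exons all overlap, so they are alternative donors of one start exon. Among all 379 called members, 74 lie in such groups. At other shared acceptors of ribosomal protein genes 3 of 11 introns passed, against 12.2% of all tested introns. Their groups had a median of 442.8 reads per library, against 46.6 in the other tested members, and their called introns a median absolute difference of 6.86 points, against 8.93.

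For 281 of the 379 called introns the untreated wild-type share lay nearer the 96 hr mean than the 48 hr mean. The 24 hr libraries of replicate 1 did so for 325 and those of replicate 2 for 193. No such counts over all tested introns stand beside these, so nothing particular to first exons is read from them.

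**Figure D5:**
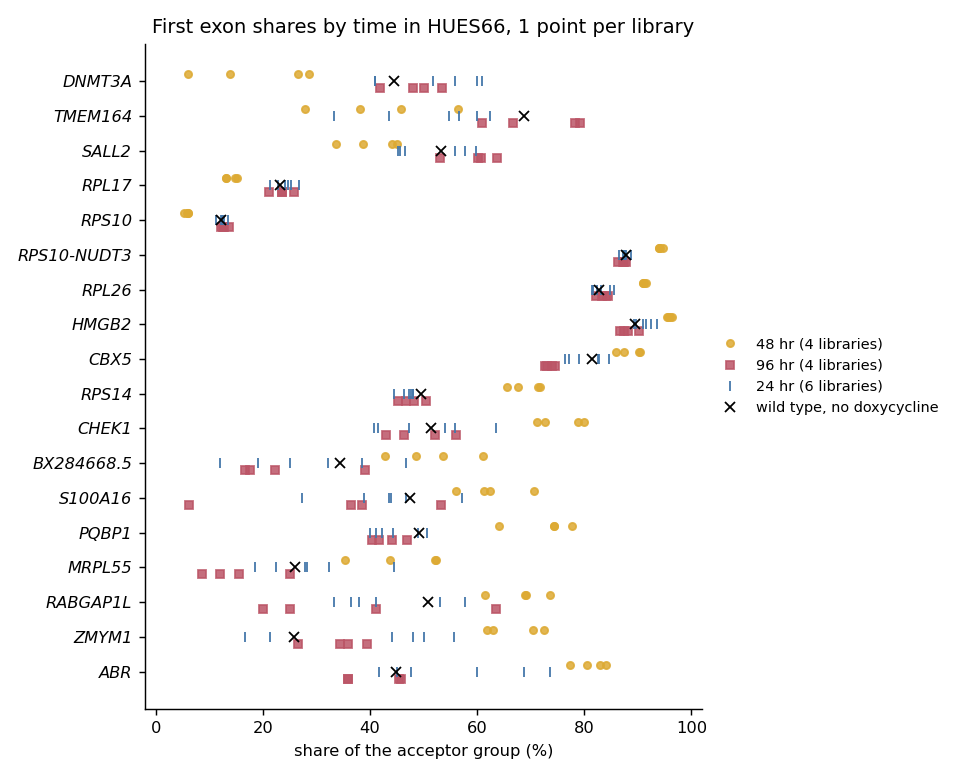
Share of the acceptor group (%) of the 18 introns named for the change with time, 1 point per HUES66 library at 48 hr, 96 hr and 24 hr, with untreated wild type as a cross. RPS14 at 96 hr (45.2% to 50.4%) lies with 24 hr and wild type, away from 48 hr (65.5% to 71.7%).

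Gene lists were followed through each comparison. Their counts with time stand beside 9.99% of all tested members and 12.2% of all tested introns, and nothing particular to a list is read from them. Of 12 pluripotency genes, 7 held member groups, and 0 of 7 tested introns passed in each knockdown contrast, while 3 of 9 passed with time. SALL4, a zinc finger factor of stem cell self-renewal, used its farther first exon for 77.1% to 78.1% at 48 hr and 87.6% to 91.0% at 96 hr (adjusted p = 1.1e-07 by edgeR), higher in 4 of 4 treatments. FOXP1, a forkhead factor with a stem cell splice form, used the nearer of the first exons printed above for 53.7% to 71.4% at 48 hr and 83.6% to 95.7% at 96 hr (adjusted p = 0.00026 by edgeR). The farther one fell from 28.6% to 46.3% to 4.26% to 16.4%.

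Of 22 genes for cytoskeletal linkers, 16 held member groups. In each knockdown contrast 0 of 32 tested introns passed, and with time 7 of 31 did. PLEC, the linker plectin known for its many alternative first exons, had 1 of 11 first introns fall from 17.3% to 25.9% at 48 hr to 4.08% to 11.3% at 96 hr (adjusted p = 0.019 by edgeR). The TPM1 first exon that was high in A375 rose from 1.38% to 2.51% to 3.29% to 7.86%. ACTN1, an actin crosslinker, rose from 91.8% to 94.1% to 96.2% to 97.5% at its leading first exon, and TPM4 from 95.5% to 97.7% to 98.1% to 99.6%. Between lines, 2 of 12 compared groups differed by at least 20 points, those of TPM1 and of DST, another linker, whose leading start in HUES66 took 52.0% there, 53.4% in A375 and 72.5% in HEK293.

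Of 37 genes known for alternative promoters, 21 held member groups, and 0 of the 17 tested introns passed in each knockdown contrast. With time 3 of 17 passed, among them a far first exon of GNAS, higher at 96 hr by 1.51 ± 0.900 points (SD, n = 4, adjusted p = 0.011 by edgeR). GNAS reached 99.8% for its leading start in A375, 96.3% in HEK293 and 89.3% in HUES66, and DNMT1 was at 98.7% to 100.0% in each line in both of its groups. Of 13 genes responsive to RBFOX proteins, 8 held member groups, and 0 of 6 tested introns passed in each knockdown contrast, nor did any of 7 with time. PICALM, a clathrin adaptor, differed most of these between lines, with 84.4% for its leading start in HEK293 against 96.3% in A375 and 95.4% in HUES66.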

How the data were processed

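Junction tables of the 19 libraries were used as the authors deposited them: raw counts of reads per splice junction, without normalization. Per the submitters' processing notes, STAR 2.7.1 and SAMtools 1.9 were used with hg38. Filters on junctions are not given in the sources used here, and 9 deposited tables of splicing events were not used.

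First introns came from GENCODE 29, and other releases may differ. The members and lists were chosen with earlier results of these data known. Groups averaging 20 or more reads in the libraries were tested, for introns with a pooled share of 2% to 98%, and in groups of 2 the farther donor was tested. Counts of an intron and of the others in its group were fitted by the quasi-likelihood F-test of edgeR (4.0.16, under R 4.3.3; terms for library, library set and knockdown, or knockdown and time), after a check on simulated data. Library set is the time and, at 24 hr, the replicate. DESeq2 1.42.0 and limma 3.58.1 (log2 ratios, 0.5 added) were alternatives. Mean differences are over sets with at least 10 reads in both libraries.

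Named genes were up to 10 called introns per contrast with the largest differences moving the same way in every set, 8 per line, 16 for the fractions, list genes with at least 50 reads per line, and the groups with most reads or next to the limit. Some genes that it names are not reported here. Genes outside this rule are said to be so or belong to a count they illustrate.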

Additional observations from a re-analysis of the deposited data

Results flagged for a closer look

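Reads from donors that GENCODE 29 does not annotate were not part of any comparison, and they entered the shared acceptors at a level of 1.11% of the annotated first-intron reads (173144 reads on 23151 junctions). Most of the deposited tables carry a v41 tag in their names, which may stand for a later annotation release, and such a release could annotate some of these donors. The reads were singled out because they lie outside the main measurement. At HNRNPF such a donor had 1584 reads against 1292 on the annotated first introns, with 25 reads in A375 total RNA, 44 in HEK293 and 209 in wild-type HUES66. The annotated first introns of HNRNPF had 41, 29 and 187 reads in these libraries, which differ in depth. At ZMYND8 one had 1551 reads against 684, with 0 in A375 total RNA, 0 in HEK293 and 194 in wild-type HUES66, where the annotated first introns had 62, 32 and 44. At NSD1 one had 1135 reads against 1581, with 0 in A375 total RNA, 0 in HEK293 and 160 in wild-type HUES66, where the annotated first introns had 42, 56 and 162. The 14 treated HUES66 libraries had 46 to 131 reads of the ZMYND8 donor and 33 to 105 of the NSD1 donor.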

How the results depend on the processing

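Counts rest on depth: with at least 20 reads per library instead of 50, 269 groups passed 20 points between lines and 106 between fractions, and with at least 100 reads 18 and 5 did. With a limit of 30 points, 29 and 7 passed. Among introns that are first in every transcript, 37 groups differed between lines, and the calls were 2 for total knockdown and 225 for time. With overlapping first exons summed, 12 fraction groups passed, with calls of 6 for total knockdown, 2 for N-long against control, 0 for N-long against N-short and 224 for time. DESeq2 gave 0, 0 and 0 calls for total knockdown, N-long and N-long against N-short, and 62 for time. limma gave 1, 1 and 0 calls for the same knockdown contrasts, 1 for N-short and 0 for time. A size of at least 10 points left 5 calls for total knockdown, 3 for N-long and 1 for N-long against N-short. A minimum of 5 reads gave 7 for total knockdown and 1 for N-long against N-short, and 50 reads gave 1 for N-long and 0 for N-long against N-short. Wild-type HUES66 as the control of 24 hr replicate 1 gave 7 for total knockdown. With introns that have listing gaps left out, a choice made after seeing the data, N-long gave 3 and N-long against N-short 0. The 3 still include the farthest RPL17 first exon, whose partner was listed at 0. The cause of these changes was not tested. Leaving out 1 library gave 1 to 12 calls for total knockdown, 0 to 2 for N-short, 2 to 6 for N-long, 1 to 3 for N-long against N-short and 207 to 248 for time. The CTSL gap reversed to -0.714 points with treated controls as HUES66.

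The reported tests have library set as a block. With no replicate block the calls were 6 for total knockdown, 0 for N-short, 2 for N-long and 0 for N-long against N-short. Across 3725 introns, the replicate differences of N-short and N-long at 24 hr had a Pearson r of 0.0954, under the 0.1 required here to call the numbers a pairing.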

Other observations

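In 11 groups of members, an intron was listed at 0 in a library where at least 10 reads were due from its median share elsewhere. RPL37 was at 0 in 10 libraries and at 60 to 551 reads in 9. TPT1 was at 0 in 13 and at 6 to 51 in 6, RPL13 at 0 in 8 and at 10 to 79 in 11, and CENPU at 0 in 11 and at 1 to 26 in 8. PKM, NME4, NPIPB5, RPL17, RPS7 and HSPE1 were also among them. Why the tables list these introns at 0 was not tested.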
